A study of Mus musculus with 6 samples.

Results

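A set of 10 genes of blood vessel growth and of the endothelium, the cell layer that lines blood vessels, were followed across all 6 arrays of a mouse skin study. They were Esm1, Angpt2, Apln, Vegfa, Kdr, Flt1, Tie1, Pecam1, Cdh5 and Aqp1, 10 of the 19057 genes with a named probe on the Illumina BeadChip. The genes were listed with earlier results of these arrays known, so the list was in part chosen by measured levels. Each gene was read from the annotated probe selected on the highest mean signal over the 6 arrays. Esm1, Angpt2 and Apln stood for sprouting, Vegfa, Kdr and Flt1 for the VEGF system, and Tie1, Pecam1, Cdh5 and Aqp1 for the endothelium in general. The differences that led to the choice are given here as descriptions, and a p-value beside a listed gene is not independent evidence that it moved.

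New vessels grow from existing ones when VEGF-A, the ligand encoded by Vegfa, binds VEGFR2, the receptor encoded by Kdr, on endothelial cells. VEGFR1, the product of Flt1, binds the same ligand and also exists as a soluble form that traps it. A few cells then lead the sprout as tip cells, and Esm1 (endocan, a secreted proteoglycan), Angpt2 (angiopoietin-2, a ligand that can oppose angiopoietin-1 at the receptor Tie2) and Apln (the peptide apelin) are known markers of such activated cells. Tie1 encodes a receptor that partners with Tie2, Pecam1 an adhesion molecule at endothelial junctions, Cdh5 the endothelial cadherin that holds those junctions together, and Aqp1 a water channel that is not restricted to endothelium. Oxygen shortage raises Vegfa transcription through hypoxia-inducible factors.

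All mice were of the C57BL6/129Sv background and 8 weeks old when their dorsal skin was treated. Wild-type mice (WT, Sting +/+) gave 1 array of skin painted with 100 µl of acetone and 2 arrays of skin tumours that arose under DMBA, a carcinogenic hydrocarbon given as 10 µg in 100 µl of acetone, weekly, over 18 to 20 weeks. STING-deficient mice (SKO, Sting -/-), which lack an adaptor of cytosolic DNA sensing, gave 1 array of acetone skin and 2 arrays of skin, not tumour, after the same DMBA course. Genotype and kind of tissue therefore changed together among DMBA samples, and their parts cannot be told apart. For the acetone arrays no length of treatment is recorded, so it may differ from the 18 to 20 weeks of DMBA. The labels do not say that the samples came from separate mice, so the spread behind each p-value may be technical. Between 35.5% and 43.3% of 45281 probes were detected per array (detection p under 0.01), and precision is limited by having 6 arrays.

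Sting1, the targeted gene, was read by 1 probe whose place relative to the deleted part none of the sources gives, so it is no check of the labels. Its normalized log2 level was 6.31 in WT acetone skin, 5.40 and 6.79 in tumours 1 and 2, 4.94 in SKO acetone skin, and 5.55 and 5.33 in SKO DMBA skin. Tumour 1, where the probe was not detected, lay among the SKO arrays. The tumours also differed more from each other (r = 0.923 over 11999 genes, no independent units, and 1842 genes more than 2-fold apart) than the SKO DMBA arrays did (r = 0.981, 394 genes).

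Promoter sequence was matched for 7 of the 10 genes, all but Angpt2, Pecam1 and Cdh5, from RefSeq with build GRCm38.p6. The 250 bases before the start of 4 of them are shown because Esm1 and Vegfa were far higher in both tumours than in any skin array whereas Flt1 and Aqp1 were not. Letters in capitals mark GCGTG, a core bound by hypoxia-inducible factors, and GGAAG, a form of the core of ETS factor sites, including their reverse complements CACGC and CTTCC. Esm1 lies at chr13:113209409-113209658 on the plus strand, Vegfa at chr17:46032378-46032627 on the minus strand (the outermost of 2 listed starts), Flt1 at chr5:147726012-147726261 on the minus strand and Aqp1 at chr6:55336049-55336298 on the plus strand, each written 5′ to 3′.
Esm1: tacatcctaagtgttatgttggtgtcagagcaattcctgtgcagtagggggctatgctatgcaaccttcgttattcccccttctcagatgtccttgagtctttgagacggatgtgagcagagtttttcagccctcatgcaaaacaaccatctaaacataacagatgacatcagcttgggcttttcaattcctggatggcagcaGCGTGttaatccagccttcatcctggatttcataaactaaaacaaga
Vegfa: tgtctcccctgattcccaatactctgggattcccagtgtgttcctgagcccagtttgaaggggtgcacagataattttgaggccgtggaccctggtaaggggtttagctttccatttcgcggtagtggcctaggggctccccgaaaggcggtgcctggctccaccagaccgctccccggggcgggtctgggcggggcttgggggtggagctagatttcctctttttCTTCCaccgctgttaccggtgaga
Flt1: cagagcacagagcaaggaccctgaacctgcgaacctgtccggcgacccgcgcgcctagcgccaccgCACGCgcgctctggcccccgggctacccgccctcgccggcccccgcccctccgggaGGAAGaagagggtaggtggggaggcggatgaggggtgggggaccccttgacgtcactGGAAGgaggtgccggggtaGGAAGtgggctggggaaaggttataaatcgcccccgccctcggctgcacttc
Aqp1: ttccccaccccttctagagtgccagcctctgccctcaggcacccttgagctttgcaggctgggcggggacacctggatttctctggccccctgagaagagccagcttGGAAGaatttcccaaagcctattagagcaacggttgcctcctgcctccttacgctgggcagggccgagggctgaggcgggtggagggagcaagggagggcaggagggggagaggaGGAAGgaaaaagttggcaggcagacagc

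On either strand, GCGTG stood in 3 of the 7 windows, 1 match in Esm1 (first base 47 bases before the start), 2 in Kdr and 1 in Flt1, against 28.2% of the 32851 windows in the table. ACGTG, the other form of that core, was in none of the 7, against 16.6% of all windows, so Vegfa held neither form in this window. GGAAG was in 6 of the 7, all but Esm1, against 64.1% of all windows, and TGAGTCA, the AP-1 motif, was in none, against 4.46%. Other forms of the ETS core were not searched. These matches describe letters only. Of the windows with a GCGTG, Esm1 belonged to a gene that was high in both tumours and Flt1 to a gene whose tumour 1 level was 0.0093 log2 units above the nearest skin array.

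Detection decided how much of the list could be read. Of the 10 genes, 7 were detected on all 6 arrays and 8 were tested, and 11 of their 20 probes were detected on all arrays. Apln was detected on none, with deposited intensities of 63.6 in WT acetone skin, 69.1 and 78.9 in tumours 1 and 2, 74.7 in SKO acetone skin, and 71.4 and 66.4 in SKO DMBA skin, and a lowest detection p of 0.0865 in tumour 2. Kdr was detected on none either, with intensities of 84, 88.4, 86.6, 76.1, 85.6 and 81.8 in the same order and a lowest detection p of 0.0192 in tumour 1. These probes could not show whether apelin or VEGFR2 transcripts differed, so sprouting was read from Esm1 and Angpt2 and the VEGF receptors from Flt1.

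Esm1 had the widest separation between tumours and skin among the 10 genes. Its normalized log2 level was 10.28 in tumour 1 and 10.51 in tumour 2, against 6.27 in WT acetone skin, 7.18 in SKO acetone skin, and 6.81 and 6.86 in SKO DMBA skin. The lower tumour lay 3.10 log2 units above the highest skin array, while the 4 skin arrays spanned 0.91. Deposited intensities, before any correction, were 1083.1 and 1428.8 in the tumours and between 142.2 and 212.3 in skin.

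Angpt2 was also higher in both tumours than in every skin array. Its log2 levels were 9.66 and 10.73 in tumours 1 and 2, 8.21 in WT acetone skin, 8.36 in SKO acetone skin, and 8.78 and 8.55 in SKO DMBA skin. The tumours lay 1.07 apart, and the lower one was 0.88 above the highest skin array, a gap wider than the 0.57 spanned by skin.

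**Figure D1:**
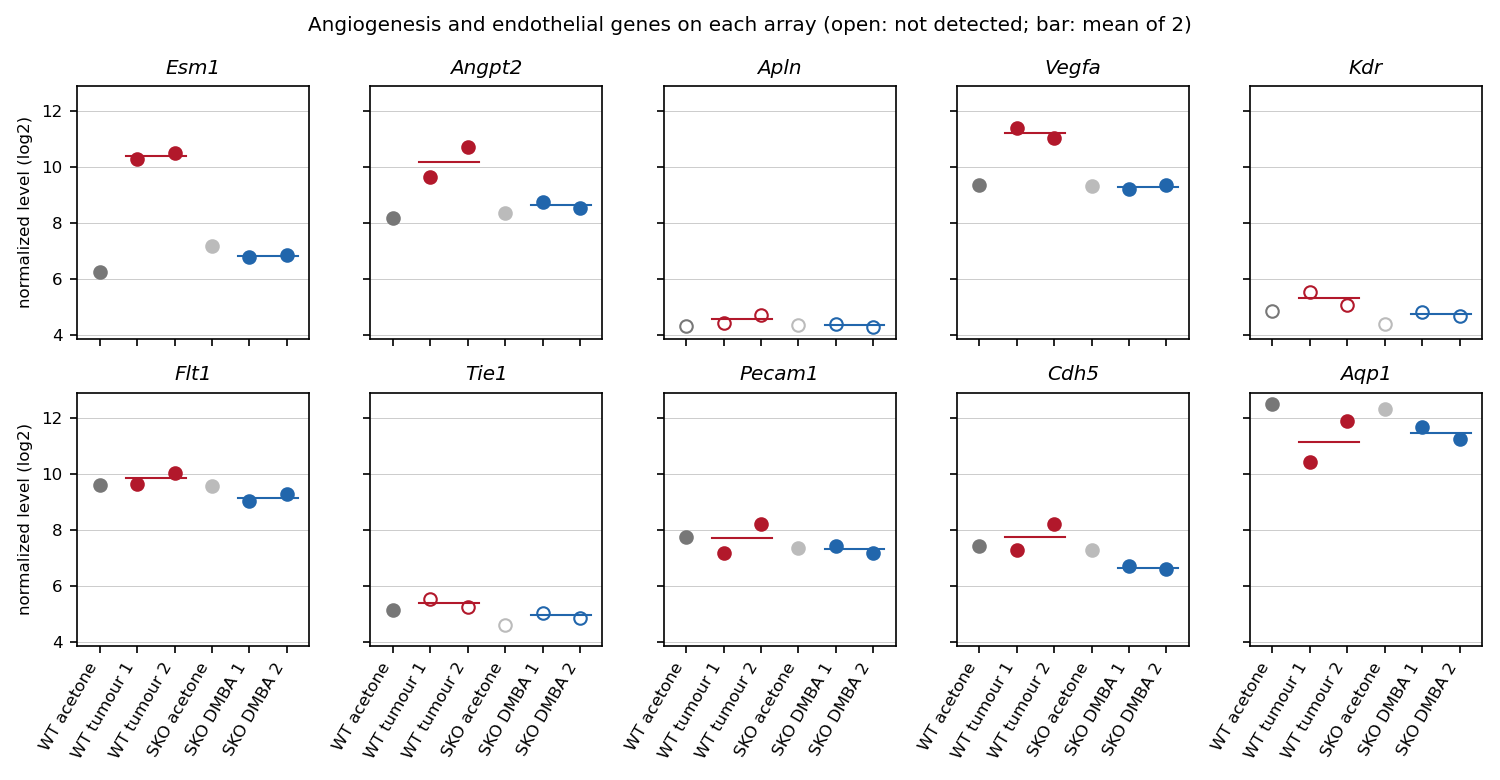
Normalized log2 level (vertical axis) of each of the 10 genes on each of the 6 arrays. Filled points were detected, open points were not, and bars mark the mean of 2 arrays. Esm1, Angpt2 and Vegfa have both tumours above all 4 skin arrays by 0.88 or more, Apln and Kdr have open points on every array, and Aqp1 spans 10.44 to 12.50 with its lowest point in tumour 1.

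Against WT acetone skin, the sprouting genes and Vegfa had the largest differences of the list, and none passed the test across genes. Esm1 was 4.12 ± 0.26 (log2, limma's SE) higher, a 17.4-fold difference with 95% limits of 10.7-fold and 28.3-fold and an adjusted p of 0.0941. Angpt2 was 1.99 ± 0.51 higher, or 3.97-fold with limits of 1.54-fold and 10.3-fold (adjusted p = 0.168). Of the 8 tested genes, 0 were called by limma at an adjusted p under 0.05, as was 0% of all 11999 genes tested. At an unadjusted p under 0.05, Esm1, Angpt2 and Vegfa were higher, 3 of 8 against 8.68% of all genes, and 0 of 8 were lower, against 12.5% of all. Among the 8590 genes detected on every array, the difference of Esm1 ranked 23rd from the highest, Angpt2 154th and Vegfa 188th.

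Leaving out either tumour changed these calls. Without tumour 1, 3 of the 8 genes passed (Esm1, adjusted p = 0.0131, difference 4.24; Angpt2, 0.0249 and 2.53; Vegfa, 0.0480 and 1.66), as did 532 of all genes. Without tumour 2, 4 passed, namely Esm1 (adjusted p = 0.00160, difference 4.01), Angpt2 (0.0257 and 1.45) and Vegfa (0.00923 and 2.02), which were higher, and Aqp1 (0.0133 and -2.05), which was lower, as did 2814 of all genes. In these fits only the SKO DMBA pair gave a spread, and a lone tumour was assumed to vary like that pair. Without background correction the Esm1 difference was 3.40, the lowest of 14 alternatives, whose adjusted p ran from 0.00160 to 0.384.

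Within the VEGF system, the ligand and Flt1, the only receptor that could be read, did not stand alike. Vegfa was at 11.40 and 11.04 in tumours 1 and 2, 9.38 in WT acetone skin, 9.35 in SKO acetone skin, and 9.22 and 9.36 in SKO DMBA skin. All 4 skin arrays thus lay within 0.16 of each other and both tumours at least 1.66 above them. Against WT acetone skin the tumours were 1.84 ± 0.29 higher, 3.58-fold with limits of 2.09-fold and 6.13-fold (adjusted p = 0.124).

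Flt1, the decoy-capable receptor, was at 9.64 and 10.07 in the tumours, 9.63 and 9.60 in WT and SKO acetone skin, and 9.05 and 9.28 in SKO DMBA skin. Tumour 1 exceeded WT acetone skin by 0.0093 only, and the mean difference of 0.22 ± 0.32 (adjusted p = 0.705) had 95% limits of -0.62 and 1.07. Its direction rested on the scaling, since the difference was -0.08 with arrays scaled to equal medians and -0.20 with no normalization between arrays. Under those scalings the median of all tested genes was itself -0.27 and -0.39, so relative to it Flt1 was higher by either.

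The general endothelial genes straddled WT acetone skin. Pecam1 was at 7.20 in tumour 1 and 8.23 in tumour 2, against 7.75 in WT acetone skin, 7.36 in SKO acetone skin, and 7.45 and 7.19 in SKO DMBA skin. Cdh5 was at 7.31 and 8.23 in the tumours, 7.45 and 7.29 in WT and SKO acetone skin, and 6.71 and 6.62 in SKO DMBA skin. In both genes tumour 2 was above every skin array and tumour 1 was not. The mean differences from WT acetone skin were -0.04 ± 0.50 for Pecam1 (95% limits -1.38 and 1.30, adjusted p = 0.970) and 0.32 ± 0.45 for Cdh5 (limits -0.89 and 1.53, adjusted p = 0.701), limits that leave room for differences of more than 2-fold.

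Tie1 was too dim to follow. It was detected on WT acetone skin alone, with intensities of 92 there, 88.2 and 90.9 in the tumours, 83.5 in SKO acetone skin, and 91.4 and 87.1 in SKO DMBA skin. After normalization its log2 levels were 5.15, 5.55, 5.27, 4.62, 5.04 and 4.89 in that order, so the tumours were above WT acetone skin although their raw signals were below it. Its difference of 0.26 ± 0.28 (adjusted p = 0.613) became -0.11 with no normalization between arrays.

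Aqp1 was the only one of the 8 tested genes that was lower in both tumours than in WT acetone skin. Its levels were 10.44 in tumour 1 and 11.89 in tumour 2, 12.50 and 12.35 in WT and SKO acetone skin, and 11.68 and 11.27 in SKO DMBA skin. Tumour 2 lay within the range of skin and tumour 1 below it. The mean difference was -1.33 ± 0.67 (95% limits -3.11 and 0.45, adjusted p = 0.318), and it was -0.61 without tumour 1.

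Between the tumour and skin arrays, 5 of the 8 tested genes did not overlap, all with the tumours higher: Esm1, Vegfa and Angpt2 by 0.88 or more, Tie1 by 0.12 and Flt1 by 0.0093. Of all 11999 tested genes, 26.1% had both tumours above the 4 skin arrays and 27.2% had both below. With no normalization between arrays only Esm1, Angpt2 and Vegfa remained apart.

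The contrast of sprouting with general endothelial genes held in each tumour taken alone. Over all 3 sprouting and 4 general genes, undetected ones included, the median difference from acetone skin of the same genotype was higher for the sprouting genes by 1.80 in tumour 1 and 2.23 in tumour 2. Over the genes detected on all arrays (Esm1 and Angpt2 against Pecam1, Cdh5 and Aqp1) it was higher by 3.29 and 2.91. In SKO DMBA skin the same quantity was 0.27 and 0.33 over all 7 genes, and 0.60 and 0.61 over the 5 detected ones. Between the acetone arrays, SKO minus WT, it was 0.43 and 0.69, no smaller than in SKO DMBA skin. The genes were chosen for this contrast, so it has no test here.

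**Figure D2:**
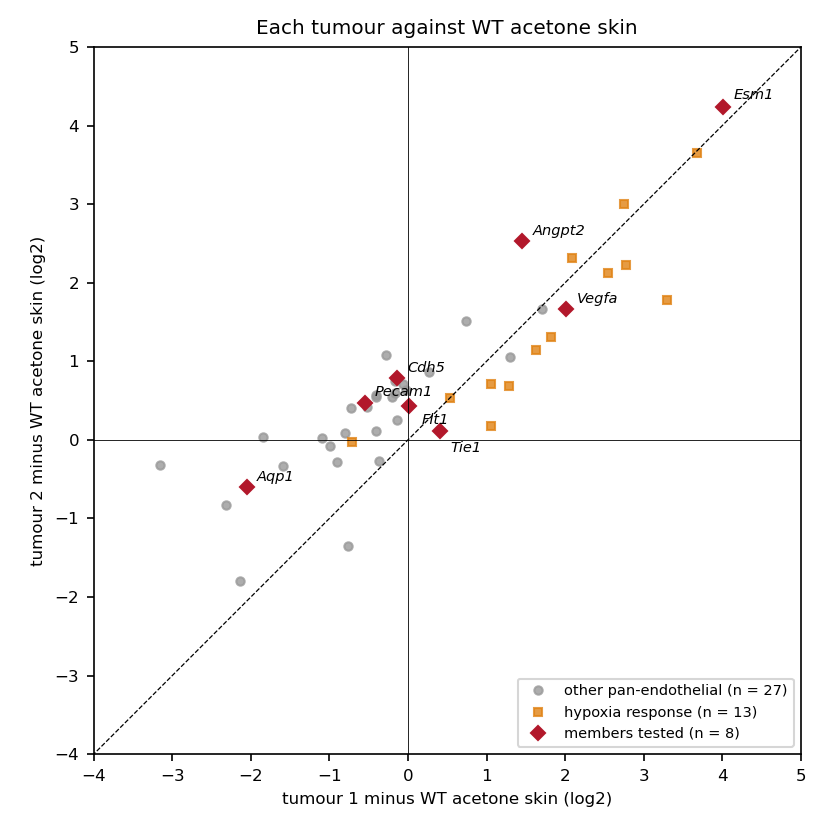
Difference from WT acetone skin (log2) in tumour 1 (horizontal axis) and in tumour 2 (vertical axis) for the 8 tested genes of the list (diamonds), 27 other endothelial genes (circles) and 13 hypoxia genes besides Vegfa (squares). The dashed line marks equal differences. Esm1, at 4.01 and 4.24, is the point farthest to the upper right, and most circles lie above the dashed line.

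The tumours differed in their overall endothelial signal. Between them, tumour 2 was higher by 1.45 for Aqp1, 1.07 for Angpt2, 1.03 for Pecam1 and 0.92 for Cdh5, and by 0.43 for Flt1 and 0.22 for Esm1. Of the other tested genes of the list, Vegfa differed by -0.35 and Tie1, detected in neither tumour, by -0.29. Of 32 other endothelial genes, such as Emcn, Eng and Vwf, 27 were tested and 22 to 26 of these were detected on each array. In tumour 1 only 4 of the 27 were above WT acetone skin (median difference -0.40), and in tumour 2 this number was 19 (median 0.41). Over both tumours the median was -0.05, beside -0.01 over all tested genes, and at an unadjusted p under 0.05, 3 of 27 were higher and 1 lower, against 8.68% and 12.5% of all genes, with 0 called after adjustment. The extremes were Sox7, a transcription factor of endothelial cells (1.69 ± 0.36, adjusted p = 0.146), and Cav1, the coat protein of caveolae (-1.97 ± 0.37, adjusted p = 0.134). Pecam1 and Cdh5 lay within that spread in both tumours, at -0.55 and -0.14 in tumour 1 and 0.47 and 0.78 in tumour 2, whereas Esm1 was at 4.01 and 4.24. In whole tissue, fewer cells of a type and less RNA per cell cannot be told apart.

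Summed levels of markers of other cells, erythrocytes excepted, also separated tumours from skin, and their part in the differences above was not tested. Summed over the tested genes of a list, normalized intensity of 7 keratinocyte genes was 155062 and 154711 in tumours 1 and 2 against 97735 to 120012 in skin. These 7 did not share a direction: over both tumours 4 were above WT acetone skin and 3 below, from Krt6a at 4.29 to Krt14 at -0.29. The sum for 8 fibroblast genes was 4530 and 19454 against 36712 to 55115, that for 7 macrophage genes 1822 and 5564 against 6372 to 18246, and that for 10 mural cell genes (pericytes and smooth muscle) 4055 and 13165 against 15811 to 24642. For 6 adipocyte genes it was 355 and 2224 against 5561 to 32376, and for 8 skeletal muscle genes 262 and 26870 against 103196 to 200561. Tumour 1 detected 1 of the 6 adipocyte genes and 1 of the 8 muscle genes, whereas tumour 2 detected 4 and 8. The 4 erythrocyte genes summed to 43015 and 14265 against 14370 to 53144, and the 27 endothelial genes to 12110 and 19208 against 15321 to 29121. In neither of these lists did both tumours lie outside the range of skin.

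In SKO mice, DMBA-treated skin and acetone skin differed little in the sprouting genes and Vegfa. Esm1 differed by -0.37 and -0.32 on the separate DMBA arrays, with a mean difference of -0.35 ± 0.26 (95% limits -1.05 and 0.35). Angpt2 was higher by 0.41 and 0.19 (mean 0.30 ± 0.51, limits -1.07 and 1.67), and Vegfa stood at -0.14 and 0.0047 (mean -0.07 ± 0.29, limits -0.84 and 0.71). The Esm1 limits leave out any increase above 1.28-fold, whereas those of Angpt2 reach 3.19-fold. Of the 8 genes, 0 were called and 0 passed an unadjusted p under 0.05 in either direction, beside 3.98% of all genes higher and 3.78% lower at that p, and the lowest adjusted p was 0.797.

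General endothelial genes were mostly at or below acetone skin in the same comparison. Aqp1 differed by -0.88 ± 0.67, Cdh5 by -0.63 ± 0.45 and Pecam1 by -0.05 ± 0.50, while Tie1, undetected on all 3 SKO arrays, was at 0.34 ± 0.28. Flt1, of the VEGF system, differed by -0.43 ± 0.32. For Aqp1, Cdh5 and Flt1 both DMBA arrays lay below the acetone array. Among the 27 other endothelial genes, 10 were above acetone skin on the first SKO DMBA array and 5 on the second, with a median of -0.65 over the pair beside 5.89e-05 over all tested genes. At an unadjusted p under 0.05, 4 of the 27 were lower and 0 higher, against 3.78% and 3.98% of all genes. The lowest was Gpihbp1, which anchors lipoprotein lipase in capillaries (-1.84 ± 0.38, adjusted p = 0.463), and the highest was Sox7 (0.44). The sums for adipocyte genes were also lower in SKO DMBA skin, at 11925 and 5561 against 32376 in SKO acetone skin.

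Set directly against SKO DMBA skin, the tumours were higher in 7 of the 8 tested genes. Esm1 was 3.56 ± 0.21 higher, an 11.8-fold difference with 95% limits of 7.93-fold and 17.5-fold (adjusted p = 0.0605). Vegfa was 1.93 ± 0.24 higher (3.81-fold, limits 2.46-fold and 5.92-fold, adjusted p = 0.0723) and Angpt2 1.53 ± 0.42 higher (2.89-fold, limits 1.33-fold and 6.28-fold, adjusted p = 0.120). Cdh5 was 1.11 ± 0.37 higher (adjusted p = 0.148) and Flt1 0.69 ± 0.26 higher (95% limits -0.00019 and 1.38, adjusted p = 0.170), with both tumours above both SKO DMBA arrays for either gene. Tie1, Pecam1 and Aqp1 differed by 0.44, 0.39 and -0.31, each, like Flt1, with 95% limits that included 0. The further Aqp1 probes, both detected on all 6 arrays, were at 0.02 and -0.13 in this comparison, so its direction depended on the probe. This comparison shares the tumour arrays with the one against WT acetone skin.

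Here too 0 of the 8 genes were called by limma, beside 0% of all genes. At an unadjusted p under 0.05, Esm1, Vegfa, Angpt2 and Cdh5 were higher, 4 of 8 against 12.4% of all genes, and 0 were lower, against 17.1%. Esm1 lay close to the threshold and passed it without background correction (limma adjusted p = 0.0463) and over the mean of each gene's detected probes (0.0460). It also passed in the authors' deposited processed values (0.0453), which nearly equal the setting without background correction and so add little. Esm1 did not pass with no filter on dim probes (0.0931), no normalization between arrays (0.0722) or equal medians (0.0668). Nor did it pass with either SKO DMBA array left out (differences of 3.54 and 3.58). Among genes detected on all 6 arrays both Esm1 (0.0469) and Vegfa (0.0475) passed, as 2 of 135 calls. Without tumour 1, Esm1, Angpt2, Vegfa and Cdh5 passed (adjusted p of 0.00927, 0.0231, 0.0283 and 0.0334), and without tumour 2, Esm1, Angpt2 and Vegfa did (0.00122, 0.0414 and 0.00430). These fits called 917 and 3708 of all genes. Aqp1 turned to 0.42 without tumour 1, and Pecam1 to -0.12 without tumour 2.

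**Figure D3:**
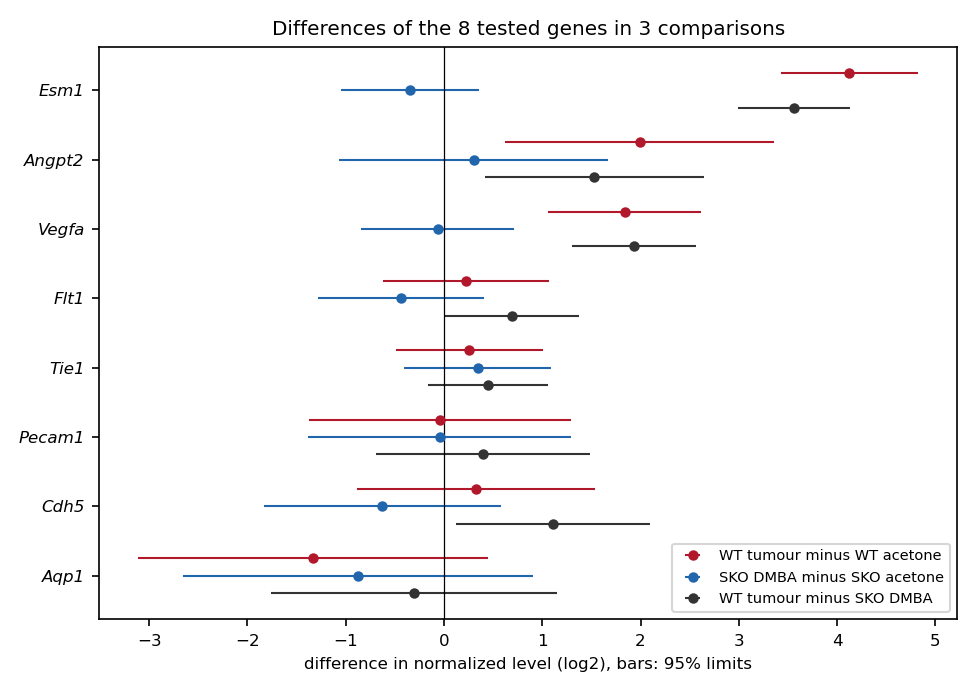
Difference in normalized log2 level (horizontal axis) of the 8 tested genes in 3 comparisons, as points with 95% limits from limma. Esm1 is at 4.12 for WT tumour minus WT acetone skin, 3.56 for WT tumour minus SKO DMBA skin and -0.35 for SKO DMBA minus SKO acetone skin. The limits of Angpt2 and Vegfa also leave out 0 in both tumour comparisons, and those of Cdh5 in the one with SKO DMBA skin.

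The difference between the DMBA response of WT mice (tumour minus acetone skin) and that of SKO mice (DMBA skin minus acetone skin) tested whether the responses were unequal. For Esm1 it was 4.47 ± 0.37 (95% limits 3.48 and 5.46, adjusted p = 0.323), the 9th highest of the 8590 genes detected on all arrays. For Vegfa it was 1.90 ± 0.41 (adjusted p = 0.538) and for Angpt2 1.69 ± 0.73 (adjusted p = 0.632). Cdh5, Flt1, Pecam1, Tie1 and Aqp1 were at 0.95, 0.66, 0.0052, -0.08 and -0.45. None of the 8 was called, beside 0% of all genes; at an unadjusted p under 0.05, 2 (Esm1 and Vegfa) were higher and 0 lower, beside 3.47% and 4.54% of all genes. Esm1 passed without tumour 1 (adjusted p = 0.0109) and Esm1 and Vegfa without tumour 2 (0.00501 and 0.0345), in fits that called 129 and 1227 of all genes. Without a tumour, only the SKO DMBA pair gave a spread. With either SKO DMBA array left out instead, neither gene passed, at similar differences (4.45 and 4.49 for Esm1, 1.83 and 1.97 for Vegfa). Each response rests on 1 acetone array, so the test of this difference has the widest error of the 4 comparisons.

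The acetone arrays of the genotypes, 1 each and so without a test, were close for most of the list. SKO acetone skin was above WT acetone skin by 0.91 for Esm1 and 0.16 for Angpt2, and the other differences were -0.03 for Vegfa and Flt1, -0.15 for Aqp1, -0.16 for Cdh5, -0.39 for Pecam1 and -0.53 for Tie1. None of the tested genes was 2-fold apart, beside 2.34% of all genes more than 2-fold higher in SKO and 3.49% more than 2-fold lower. Esm1 was thus lowest of all arrays in WT acetone skin, and its tumour difference was larger against that array than against SKO DMBA skin.

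Further probes of the same genes gave a partial check on these values. A second detected Vegfa probe differed by 3.26 in tumour 1 and 2.08 in tumour 2 from WT acetone skin, larger than the 2.02 and 1.66 of the probe used, and by 0.23 between the mean of SKO DMBA skin and SKO acetone skin. The second Angpt2 probe was detected in tumour 2 alone, with 1.71 there and 0.20, undetected, in tumour 1. Second probes of Pecam1 (-0.14 and 0.67) and Cdh5 (-0.29 and 0.56) split the tumours in the same order as the first probes. Aqp1 had a pair of further probes at -1.61 and -0.21 and at -1.59 and -0.42 in tumours 1 and 2, both negative in both tumours. Esm1 had no other probe.

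**Figure D4:**
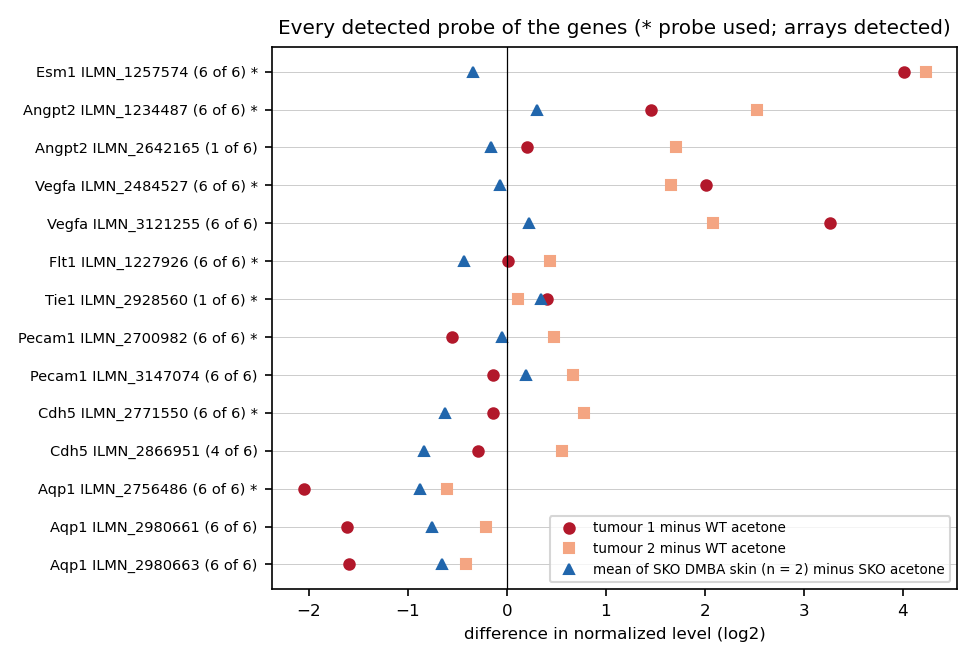
Difference in normalized log2 level (horizontal axis) for each of the 14 probes of the list that were detected on at least 1 array, with an asterisk at the probe used and the number of arrays with detection in brackets. Points give tumour 1 and tumour 2 minus WT acetone skin and the mean of SKO DMBA skin minus SKO acetone skin. Both Vegfa probes have both tumours at 1.66 or more, and all 3 Aqp1 probes have tumour 1 at -1.59 or lower.

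Other tip cell genes did not share one direction in the tumours. Of 20 listed, 16 were tested and 8 were above WT acetone skin (median -0.07). At an unadjusted p under 0.05, 4 were higher and 1 lower, against 8.68% and 12.5% of all genes, and none was called. The highest was Pgf, a VEGF family ligand of Flt1, which passed the filter only through the tumours, where alone it was detected, and so had to differ. It was at least 3.59-fold higher than in WT acetone skin and at least 3.56-fold higher than in SKO DMBA skin. These are bounds against the dimmest detected signal of the skin arrays, beside limma's adjusted p of 0.133 and 0.0820. The lowest was Chst1, a sulfotransferase, at -2.41 ± 0.51 (adjusted p = 0.146), which was also lowest in SKO DMBA against SKO acetone skin (-2.20). Cxcr4, a chemokine receptor of tip cells and leukocytes, was highest in that SKO comparison (1.61 ± 0.41, adjusted p = 0.537) and at 0.31 in the WT one.

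Ligands and receptors of vessel growth beyond the listed genes lay on both sides of WT acetone skin and differed between the tumours. In tumour 1, 3 of 12 tested ligands were above it (median -1.02), and in tumour 2, 6 of 12 (median 0.10). Over both tumours the median was -0.58, with 2 higher at an unadjusted p under 0.05 and 4 lower, against 8.68% and 12.5% of all genes. One of the higher pair was Pgf, which was tested only because it was detected in the tumours. Pgf was highest, and Cxcl12, a chemokine made by stromal cells, lowest at -2.75 ± 0.83 (adjusted p = 0.193). Of 13 tested receptors, 3 were above WT acetone skin in tumour 1 (median -0.75) and 6 in tumour 2 (median -0.34), with 1 in each direction at an unadjusted p under 0.05 over both. Ramp3 (1.03 ± 0.25, adjusted p = 0.160) and Ramp2 (-1.58 ± 0.67, adjusted p = 0.271), both partners of the adrenomedullin receptor, were the extremes. Among 8 Notch pathway genes, which restrain sprouting, the median was 0.20, Notch4, an endothelial Notch receptor, was highest at 1.30 ± 0.33 (adjusted p = 0.165) and the Notch target Hey1 lowest at -0.89 ± 0.37 (adjusted p = 0.266). No gene of these lists was called in any of the 4 comparisons.

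Genes of the hypoxia response, among them Vegfa itself, were nearly all higher in the tumours. Of 14 tested, 13 were above WT acetone skin, 10 at an unadjusted p under 0.05 (against 8.68% of all genes) and 0 after adjustment, with a median difference of 1.70 beside -0.01 over all tested genes. For 12 of the 14, the lower tumour exceeded the highest skin array, against 26.1% of all tested genes, and the summed intensity was 61964 and 53618 in the tumours against 18235 to 26299 in skin. Egln3, an oxygen-sensing hydroxylase that is itself induced by hypoxia-inducible factors, was highest at 3.67 ± 0.26 (adjusted p = 0.0941), and P4ha1, a collagen hydroxylase, lowest at -0.37 ± 0.40 (adjusted p = 0.607). In SKO DMBA skin 8 of the 14 were above SKO acetone skin (median 0.06, 2 at an unadjusted p under 0.05, against 3.98% of all genes), again led by Egln3 at 2.33 ± 0.26 (adjusted p = 0.332), while Vegfa was at -0.07. Adm, the hypoxia-induced ligand adrenomedullin, was higher by 2.33 ± 0.36 (adjusted p = 0.124) in the tumours and by 0.69 in SKO DMBA skin.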

How the data were processed

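Total RNA of dorsal skin or skin tumour was hybridised to 6 one-colour Illumina BeadChips, 1 sample each, after RNeasy extraction and biotin labelling with Ambion MessageAmp, per the labels' protocols. Per the file headers, the deposited non-normalized table pairs a linear intensity with a detection p-value for 45281 probes per array. No source used here names the scanner or its software. Deposited detection p-values rose with signal (lowest Spearman correlation 0.975), and were therefore turned into 1 minus their value. The deposited log2 matrix of the authors matched quantile-normalized log2 signals, with no background step and centred on each probe's median, to within a mean of 0.00125. This match gave its scale, centring and direction, and it served as an alternative. Its column medians were -0.00263 (WT acetone), 0.0122 and 6.82e-05 (tumours), -0.000698 (SKO acetone), -0.00172 and -0.00292 (SKO DMBA).

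The function nec of limma 3.58.1 (R 4.3.3) removed background by detection p-values and added an offset of 16. The signals were then quantile-normalized and turned into log2 values. Of the probes, 34885 carried 1 gene name in the platform annotation, 18 carried several and were not named, and 10378 carried none. A RefSeq table (GRCm38.p6) held 34807 of the gene identifiers and gave current symbols. The brightest probe by mean deposited signal stood for a gene, and 11999 genes were tested, those with detection at p under 0.01 on 1 array or more. A model of the 4 group means over the 6 arrays was fitted by lmFit and eBayes (residual degrees of freedom 2, prior 2.43), in which single acetone arrays borrow the spread of the groups of 2. P-values were adjusted by Benjamini-Hochberg over all tested genes, with calls at an adjusted p under 0.05. Errors (SE) are the moderated ones of limma. The scripts were tested on simulated data.

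The genes, lists and tests were chosen with earlier results of these data known. From each list the highest and lowest gene in the WT and the SKO comparison were named by rule. Labels give no slide or batch, and replicate numbers follow accession order. Alternatives changed the background step, offset, scaling, filter, probe rule, spread model and arrays used, and the mean of a gene's detected probes was added after seeing the data.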

Additional observations from a re-analysis of the deposited data

Results flagged for a closer look

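Esm1 and Flt1 lay on opposite sides of acetone skin in the genotypes, since both tumours were above WT acetone skin and both SKO DMBA arrays were below SKO acetone skin. The difference of the responses was 4.47 ± 0.37 for Esm1 (limma adjusted p = 0.323) and 0.66 ± 0.45 for Flt1 (adjusted p = 0.666), so neither passed the test. For Flt1, tumour 1 exceeded WT acetone skin by only 0.0093.

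Probes that the comparisons did not use also carried signal. The second Vegfa probe was above the higher acetone array by 3.26 in tumour 1 and 2.08 in tumour 2. The second Angpt2 probe was above it by 1.54 in tumour 2, the only array where it was detected. These values rest on single arrays and were not tested.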

How the results depend on the processing

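Of 452 alternative values for single genes, 407 kept direction and side of the threshold, 22 newly passed it and 23 reversed. No listed gene was called in the main setting, so no call could be lost. With 1 array of a pair left out, listed genes called numbered 0 to 4 against WT acetone skin (3 without tumour 1, 4 without tumour 2, all genes 0 to 2814), 0 to 4 for tumours against SKO DMBA skin (all genes 0 to 3708), 0 to 2 for the difference of responses (all genes 0 to 1227) and 0 in the SKO comparison (all genes 0 to 182). The highest numbers came without a tumour, when only the SKO DMBA pair gave a spread. For tumours against SKO DMBA skin, 1 listed gene of 7 in all was called without background correction and in the deposited matrix, 1 of 9 with the mean of detected probes, and 2 of 135 among genes detected on all arrays, where fewer genes were tested. The sprouting shift, 2.02 over both tumours, was 3.10 over genes detected on all arrays. In SKO DMBA skin it was 0.30, and 0.187 without background correction, 0.185 in the deposited matrix, 0.252 with an offset of 50, 0.208 with equal medians or no normalization, and 0.604 over detected genes. Without normalization 3 genes, not 5, lay outside the skin range.

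The cause of the reversals was not tested. Against WT acetone skin, equal medians gave Flt1 -0.0796 and Cdh5 -0.119, no normalization gave Flt1 -0.195, Tie1 -0.108 and Cdh5 -0.235, and the mean of probes gave Pecam1 0.112. With 1 array left out, Pecam1 ran from -0.554 to 0.474 and Cdh5 from -0.137 to 0.783. In SKO skin, Vegfa was 0.0817 and Pecam1 0.0731 with the mean of probes, and Pecam1 0.0188 with equal medians and 0.0307 with no normalization. With 1 array left out, Vegfa ran from -0.135 to 0.00471 and Pecam1 from -0.175 to 0.0847. For tumours against SKO DMBA skin, Pecam1 was -0.0840 with no normalization and ran from -0.120 to 0.907 with 1 array left out, and Aqp1 from -1.03 to 0.419. For the difference of responses, Pecam1 was -0.500 with equal medians and -0.628 with no normalization, and with 1 array left out Pecam1 ran from -0.509 to 0.519, Tie1 from -0.228 to 0.0585 and Aqp1 from -1.18 to 0.272. No paired analysis was possible because the labels give no replicate number shared between groups. Apln and Kdr did not pass the detection threshold on any array, so no difference in them could be read.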

Other observations

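Lymphatic and mural cell genes had medians below WT acetone skin in both tumours, and limma called 0 genes of the lists below. In lymphatic endothelium, the lining of lymph vessels, 0 of 6 tested genes were above WT acetone skin in tumour 1 (median -1.72) and 2 of 6 in tumour 2 (median -0.24), with 0 in either direction at an unadjusted p under 0.05. Over both tumours they ranged from Pdpn, also made by keratinocytes, at -0.09 to Ccl21a, a chemokine of lymphatic cells, at -3.07 ± 1.88. In SKO DMBA skin 5 of the 6 were above SKO acetone skin (median 0.40), led by Ccl21a at 1.03. Of 10 genes of mural cells, the pericytes and smooth muscle around vessels, 1 was above and 9 were below WT acetone skin in the tumours (median -0.95), with 2 lower and 0 higher at an unadjusted p under 0.05, against 12.5% and 8.68% of all genes, and with Notch3 at 0.50 and Des, also a muscle gene, at -4.05. In SKO DMBA skin, too, 9 of these 10 were below acetone skin (median -0.60).

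Leukocyte adhesion genes of endothelium split the tumours, with a median of -0.80 in tumour 1 and 0.57 in tumour 2 over 7 genes. Among them, Sele passed the filter only through tumour 2, where alone it was detected. Selp, P-selectin, was highest at 0.50 over both, and Ackr1, a chemokine-binding receptor of venules, lowest at -3.01. In SKO DMBA skin Vcam1, an adhesion molecule for leukocytes, was highest of the 7 at 1.76, beside 7 of 7 macrophage genes above SKO acetone skin (median 0.65). The 8 tested inhibitors of vessel growth had a median of -0.19 in the tumours, from Timp3, a matrix protease inhibitor, at -2.77 to Col18a1, the source of endostatin, at 0.73. Keratinocyte genes in the tumours ranged from Krt6a at 4.29 to Krt14 at -0.29, those of fibroblasts reached down to Dcn at -5.03, and those of adipocytes and skeletal muscle had medians of -3.89 and -5.87.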
